A study of Mus musculus with 7 samples.

Results

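Yy1, Ncoa2, Dyrk1a and Celf1 are 4 of 21631 mouse protein-coding genes on the autosomes and X, each taken with its body and 20 kb on each side. They were chosen from measured values: a replication origin at an end of each gene stood near the top of all 6 deposited peak lists when peaks were ordered by −log10 q-value. The values that made the choice are therefore given as descriptions, with no test. Origins were mapped by sequencing short nascent strands, the short pieces of new DNA made where replication forks have just begun, in mouse embryonic stem cells (mESCs). APH libraries came from cells exposed for 2.5 h to aphidicolin at 0.5 µM, a drug that blocks the DNA polymerases of replication. CDC6 libraries came from cells kept for 30 h in doxycycline at 1 µg/ml, which turns on extra CDC6, a factor that helps load the replicative helicase onto origins. WT libraries came from untreated cells. Each condition had 2 libraries, I and II, and 1 list of origins. Both APH libraries, both CDC6 libraries and WT II were made from TetO-CDC6 mESCs, derived from a mouse carrying the doxycycline-inducible transgene, so APH and WT II cells carried it too. WT I came from another mESC line, grown in another medium, for which the labels state the genotype WT and no transgene. Whether the paired APH or CDC6 libraries stem from different cultures is not stated in the labels. Any p-value below thus covers just the spread between libraries, which may be technical in these pairs. In WT that spread also holds the difference of line and medium, and all comparisons share it. DNA libraries measure neither CDC6 protein nor marker genes of stem cells, so the induction and the cell type were not checked here.

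Origins in mammals have no fixed sequence, and many lie at the CpG-rich promoters of active genes, where chromatin is open. More sites are licensed with the helicase than are fired in any S phase, and spare sites can fire when forks slow. Yy1 is a zinc-finger transcription factor that also bridges enhancers and promoters. Ncoa2 is a coactivator of nuclear receptors, Dyrk1a is a protein kinase whose human gene lies in the Down syndrome region, and Celf1 is an RNA-binding protein that acts in splicing and messenger RNA decay.

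The promoters are shown because the strongest peaks lay on them. The RefSeq table of GRCm38.p6, the mm10 build, gave 250 bases before and 50 after each start for 3 of the 4 genes. Ncoa2 is named only. The sequences run 5′ to 3′ on the gene's own strand, with CG pairs in capitals. The second Dyrk1a sequence is an internal promoter that no peak of any library met, and Slc25a29 is the neighbour of Yy1 whose promoter held an origin of all 3 lists.
Yy1 promoter, chr12:108793047-108793346, plus strand: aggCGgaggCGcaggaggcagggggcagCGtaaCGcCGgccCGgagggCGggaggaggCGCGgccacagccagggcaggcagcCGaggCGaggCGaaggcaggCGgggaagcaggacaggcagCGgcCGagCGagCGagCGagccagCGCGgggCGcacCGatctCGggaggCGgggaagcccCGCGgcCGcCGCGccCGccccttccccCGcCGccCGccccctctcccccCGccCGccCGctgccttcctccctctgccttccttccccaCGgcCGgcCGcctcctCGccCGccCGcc
Dyrk1a promoter, chr16:94569956-94570255, plus strand: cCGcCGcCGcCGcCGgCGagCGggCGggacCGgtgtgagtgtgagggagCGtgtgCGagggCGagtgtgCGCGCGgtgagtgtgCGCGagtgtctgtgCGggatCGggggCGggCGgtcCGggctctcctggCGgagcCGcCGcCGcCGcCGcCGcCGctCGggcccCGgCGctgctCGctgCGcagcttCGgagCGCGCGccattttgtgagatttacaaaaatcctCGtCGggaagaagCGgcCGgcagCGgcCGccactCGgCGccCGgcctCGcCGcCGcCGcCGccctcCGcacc
Dyrk1a internal promoter, chr16:94611169-94611468, plus strand: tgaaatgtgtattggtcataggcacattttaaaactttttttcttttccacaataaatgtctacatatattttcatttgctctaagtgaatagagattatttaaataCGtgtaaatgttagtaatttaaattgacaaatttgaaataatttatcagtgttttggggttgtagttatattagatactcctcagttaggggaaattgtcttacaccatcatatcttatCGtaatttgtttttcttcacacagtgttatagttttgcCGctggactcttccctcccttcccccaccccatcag
Celf1 promoter, chr2:90940147-90940446, plus strand: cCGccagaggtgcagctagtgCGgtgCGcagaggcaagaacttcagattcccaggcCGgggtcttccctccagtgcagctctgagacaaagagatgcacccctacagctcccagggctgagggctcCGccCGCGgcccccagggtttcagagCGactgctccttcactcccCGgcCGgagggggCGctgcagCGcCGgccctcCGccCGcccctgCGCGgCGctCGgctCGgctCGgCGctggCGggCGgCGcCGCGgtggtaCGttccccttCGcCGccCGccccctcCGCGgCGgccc
Slc25a29 promoter, chr12:108835827-108836126, minus strand: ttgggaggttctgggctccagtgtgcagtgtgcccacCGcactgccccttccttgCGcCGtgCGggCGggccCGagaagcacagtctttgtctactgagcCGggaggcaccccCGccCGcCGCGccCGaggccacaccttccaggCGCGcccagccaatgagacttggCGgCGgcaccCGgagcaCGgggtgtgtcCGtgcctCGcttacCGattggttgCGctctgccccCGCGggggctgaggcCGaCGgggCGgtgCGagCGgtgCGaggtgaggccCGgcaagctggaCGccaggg

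Promoters under strong peaks were rich in CpG, as the capitals show. The Yy1 promoter held 42 CG pairs, with a GC content of 81.0%. The Dyrk1a promoter held 54, with a GC content of 77.0%, and the Celf1 promoter 34, with 74.3%. Over 32851 promoters of the same 300 bases in the table, the medians were 7 pairs and a GC content of 52.7%. Yy1, Dyrk1a and Celf1 held more pairs than 97.0%, 99.65% and 92.3% of these promoters. A further Dyrk1a promoter at chr16:94570657-94570956 lay under the same peak and held 30 pairs. The internal Dyrk1a promoter held 3 pairs, with a GC content of 32.0%, and 1.72% of promoters had a lower GC content. At Slc25a29 there were 32 pairs and a GC content of 72.3%. The internal Dyrk1a promoter thus stood apart from the others.

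Promoter sequences were also searched on both strands for GGGCGG, the core of the GC box. It matched 7 times at Yy1, 4 times at the Dyrk1a promoter, 6 times at Celf1, 3 times at Slc25a29 and 0 times at the internal Dyrk1a promoter, and 35.7% of all promoters held it. The motif CCAAT matched 2 times at Slc25a29, 1 time at the internal Dyrk1a promoter and 0 times at the others, and 37.4% of all promoters held it. A G-quadruplex pattern, 4 runs of at least 3 guanines with loops of 1 to 7 bases, was found on 1 strand at Yy1 and at each Dyrk1a promoter, the internal one included, and on 0 strands at Celf1 and Slc25a29. Of all promoters, 18.6% held it. These are matches of letters, not sites.

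The strongest peaks were found in the MACS2 lists, which hold for each peak the authors' fold over 1 control shared by all libraries. Folds and ranks belong to their own list, and the lists held 74540 and 71435 peaks in APH, 72384 and 82071 in CDC6, and 94747 and 81056 in WT. Read depth is unknown, so list length limits the precision. In bulk DNA, more cells using an origin and more strands per cell cannot be told apart. Labels disagree in 2 places. The rows of the APH, CDC6 and WT condition lists recur in further per-library lists labelled CDC6 I, CDC6 II and APH I, and peak names inside the WT I list carry the label WT II. Condition lists and MACS2 lists were used under their own records, and the tests of neighbouring peaks were repeated with each library left out. A peak counted as a gene-end peak if it overlapped 1 kb on either side of a gene end.

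Yy1 spans chr12:108792945-108820148 on the plus strand, and its peak lay over its start. The fold was 14.4 in both APH I and APH II, 12.0 and 12.4 in CDC6 I and II, and 14.3 and 9.53 in WT I and II. Among the peaks of each list ordered by −log10 q-value, it ranked 11 and 4 in APH, 43 and 1 in CDC6, and 1 and 7 in WT. It was thus the first peak of CDC6 II and of WT I. Its midpoint lay 441 to 560 bp inside the gene and its width was 3286 to 3714 bp.

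Ncoa2 spans chr1:13139105-13374227, and its peak lay over the higher-coordinate end. The fold was 12.9 and 13.1 in APH, 10.7 and 9.68 in CDC6, and 11.2 and 8.45 in WT. It ranked 15 and 12 in APH, 116 and 24 in CDC6, and 18 and 17 in WT. The peak was 5351 bp wide in CDC6 II and 3038 to 3235 bp wide in the other 5 libraries.

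Dyrk1a spans chr16:94569947-94695519 on the plus strand. The peak at its start had a fold of 12.5 and 13.3 in APH, 11.05 and 12.2 in CDC6, and 9.42 and 7.655 in WT. It ranked 33 and 20 in APH, 119 and 2 in CDC6, and 208 and 67 in WT. Both WT libraries lay below the other 4 libraries in fold, as they also did at Celf1. The midpoint was within 146 bp of the annotated start in each library.

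Celf1 spans chr2:90940259-91019497 on the plus strand. Its start peak had a fold of 9.58 and 10.95 in APH, 9.98 and 8.45 in CDC6, and 7.87 and 6.58 in WT. Its ranks were 67 and 22 in APH, 72 and 33 in CDC6, and 223 and 49 in WT. The Celf1 fold was the lowest of the 4 genes in each of the 6 libraries. It was also the narrowest of the 4 peaks in each library, at 1916 to 2977 bp.

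WT II gave the lowest fold of the 6 libraries at each of the 4 genes. The APH folds lay above both WT folds at 4 of 4 genes, as they did at 25.9% of the 8542 genes with a gene-end peak in all 6 libraries. The CDC6 folds lay above both WT folds at Dyrk1a and Celf1, against 28.5% of those genes. The choice of the genes used these peaks, so nothing is read from either count. The −log10 q-value ran from 50.5 to 99.3 at Yy1, 42.4 to 87.85 at Ncoa2, 33.3 to 84.4 at Dyrk1a and 35.4 to 82.9 at Celf1, with the lowest value in WT II at each gene. The fold divided by the median fold of its list was 3.92 to 5.73 at Yy1, 3.48 to 5.23 at Ncoa2, 3.15 to 5.29 at Dyrk1a and 2.71 to 4.36 at Celf1. Just inside the choice, Celf1 was at position 5 by mean percentile of −log10 q-value, behind Rev1, a DNA polymerase of translesion synthesis, which was not chosen. Just outside stood Rsbn1, with a fold of 11.2 and 12.0 in APH, 9.32 and 8.63 in CDC6, and 7.64 and 7.99 in WT. Rev1 had folds of 12.3 and 12.6 in APH, 9.95 and 9.65 in CDC6, and 11.3 and 6.86 in WT. Both thus had folds like those of the chosen genes.

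**Figure D1:**
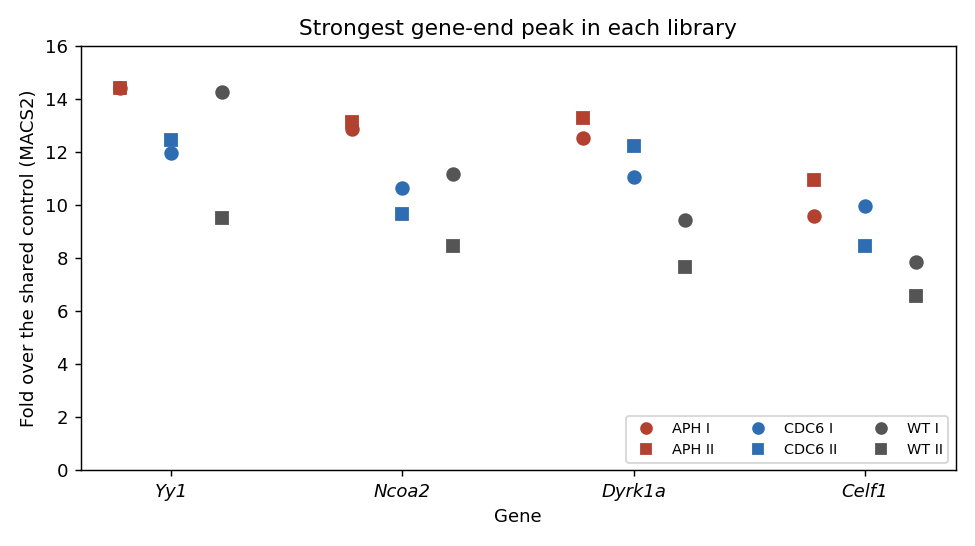
Fold over the shared control (y axis, from 0) of the strongest gene-end peak of each gene (x axis) in each library, with APH in red, CDC6 in blue and WT in grey, circles for library I and squares for library II. WT II is the lowest point at each gene, from 6.58 at Celf1 to 9.53 at Yy1.

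Strength and width did not go together at all 4 genes. Over 5889 genes with a gene-end origin in all 3 lists and a peak in all 6 libraries, the median fold was 4.51 and 4.93 in APH, 4.79 and 4.80 in CDC6, and 5.10 and 3.44 in WT. Median widths, in bp, were 1826 and 1999 for APH, 2256 and 2032 for CDC6, and 2248 and 1934 for WT. Peaks at Yy1, Ncoa2 and Dyrk1a were wider than 69.1% to 93.8% of these. The Celf1 peak was wider than 60.9% and 53.6% in APH, 46.3% and 53.9% in CDC6, and 35.6% and 81.0% in WT, near the middle in most libraries.

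All 4 gene ends held an origin in the APH, CDC6 and WT lists. Such an origin was present at 27.3% of all protein-coding genes, 5895 of 21631, and the choice of these genes leaves nothing to read from the count. At Yy1 the origin of the APH list was 2903 bp wide, that of the CDC6 list 2935 bp and that of the WT list 3094 bp. At Ncoa2 these widths were 2658, 2695 and 2641 bp, at Dyrk1a 2972, 2888 and 3000 bp, and at Celf1 1639, 1557 and 1778 bp, in the same order of lists. The lists' median widths were 670, 737 and 720 bp, so each of these origins was wider than at least 92.8% of its list. Each listed origin lay inside the MACS peaks of its own condition at that gene.

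Away from these 4 sites the lists differed. With the 4 gene-end sites included, the APH, CDC6 and WT lists held 8, 9 and 11 origins in the windows. Since each condition has 1 list, these counts have no replicate error. Whole lists ran the other way, with 31653, 31384 and 20178 origins. Yy1 had 2 origins in each list. Ncoa2 had 4 in APH, 3 in CDC6 and 5 in WT, Dyrk1a had 1, 2 and 3, and Celf1 had 1, 2 and 1.

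The second origin of the Yy1 window was shared by all lists. It lay at the start of Slc25a29, a mitochondrial carrier of basic amino acids that is read from the opposite strand, at chr12:108835474-108836382 in the APH list. Its MACS fold was 3.86 and 4.12 in APH, 3.94 and 3.71 in CDC6, and 2.97 and 2.54 in WT. The origin spanned 909 bp in the APH list, against 865 bp in the CDC6 list and 553 bp in the WT list. The far end of Yy1 had no peak in any library.

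The Dyrk1a window held an origin at each gene end. The one at the higher-coordinate end was in the CDC6 and WT lists, at chr16:94695400-94696366 in CDC6 and chr16:94695621-94696297 in WT, and not in the APH list. Its MACS peak was absent in APH I and had a fold of 2.64 in APH II, 6.30 and 6.90 in CDC6 I and II, and 4.06 and 3.68 in WT I and II. Ranked within its list it stood at 32333 in APH II, 2636 and 1268 in CDC6, and 9858 and 6532 in WT. Relative to the list's median fold it was 1.05 in APH II, 2.51 and 2.52 in CDC6, and 1.56 and 1.51 in WT. Both CDC6 values thus lay above both WT values, and the APH II value lay below them. For the strongest gene-end peak on this scale, CDC6 lay above WT at 24.85% of the 8542 genes and APH below WT at 8.70%. Those genes have a peak in all 6 libraries, while this site has none in APH I, so the shares are not matched to it. The difference was not tested, since this peak overlaps a gene end and was among those from which the strongest was picked.

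Ncoa2, the longest of the 4 genes at 235.1 kb, had its other listed origins within the gene body. An origin 67.3 kb from the lower-coordinate end was in all 3 lists, with folds of 2.95 and 2.55 in APH, 3.18 and 2.64 in CDC6, and 3.37 and 3.44 in WT. One at 128.8 kb was in the CDC6 and WT lists, with no peak in APH, folds of 2.81 and 2.27 in CDC6, and 2.56 and 2.62 in WT. Peaks there were thus in both libraries of 2 conditions and in neither library of the third. The same held at 156.2 kb, a site in no list, and how often such splits occur over all sites was not counted. At 175.7 kb the APH list alone held an origin, with folds of 2.22 and 2.41 in APH, 2.69 in CDC6 I, and no peak in CDC6 II, WT I or WT II. At 199.3 kb the WT list alone held one, with a fold of 2.16 in APH I, no peak in APH II, CDC6 I or CDC6 II, and folds of 4.75 and 2.56 in WT. The origin at 222.7 kb was in the APH and WT lists although all 6 libraries had a peak there, at 2.87 and 2.21 in APH, 1.98 and 2.76 in CDC6, and 3.525 and 2.13 in WT. No peak met the lower-coordinate end of Ncoa2 in any library.

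Celf1 and Dyrk1a each had an origin inside the gene that a single list held. At Celf1 it lay 29.1 kb from the start, at chr2:90969183-90969716, and was in the CDC6 list. All 6 libraries had a peak there, with folds of 2.125 and 2.41 in APH, 2.54 and 2.69 in CDC6, and 3.08 and 2.40 in WT. The presence in the CDC6 list alone therefore did not mark libraries with a peak. At Dyrk1a it lay 28.3 kb from the start, at chr16:94597856-94598486, and was in the WT list. Its folds were 2.33 and 2.18 in APH and 2.86 and 2.97 in WT, and neither CDC6 library had a peak.

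**Figure D2:**
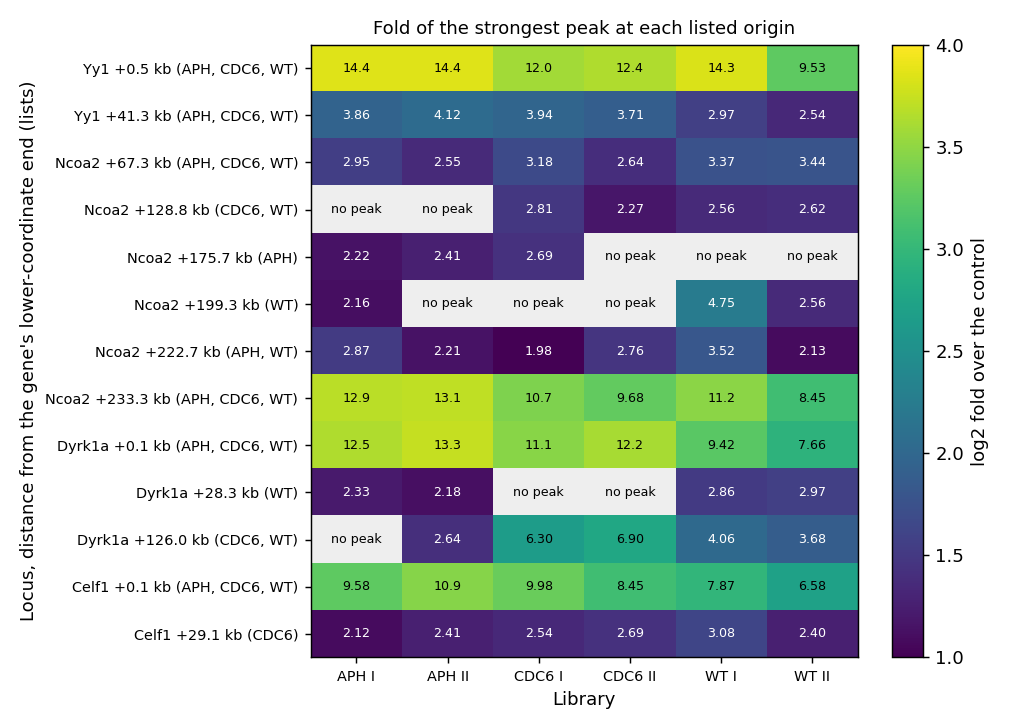
Fold of the strongest MACS peak (colour, log2 of the fold; printed value, fold) at each of the 13 sites that hold a listed origin (rows, with the distance in kb from the lower-coordinate end of the gene and the lists that hold it) in each library (columns). The 4 gene-end sites reach 6.58 to 14.4 and the other 9 sites 1.98 to 6.90, the highest of these at the far end of Dyrk1a in CDC6 II.

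Weaker peaks surrounded the 4 strong ones. Overlapping peaks of the libraries merged into 46 weaker sites over the 4 windows, of which 5 had a peak in all 6 libraries and 23 in 1 library. Of those 23, APH I, APH II and CDC6 I held 0, CDC6 II held 3, WT I held 13 and WT II held 7. Both libraries of a condition had a peak at 9 sites in APH, 12 in CDC6 and 14 in WT. APH or CDC6 libraries alone had peaks at 7 sites, and WT libraries alone at 22. Of those 22, WT I alone held 13 and WT II alone held 7. How often such splits occur over all sites of the genome was not counted, so nothing is read from these numbers. Of the 46 sites, 9 were in a condition list. A site near Rapsn, which encodes a protein that clusters acetylcholine receptors at the neuromuscular junction, lay 96.6 kb from the Celf1 start. It had a peak in all 6 libraries, with folds of 2.66 and 2.51 in APH, 2.62 and 3.57 in CDC6, and 2.53 and 2.40 in WT, and was in none of the 3 lists.

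The weaker peaks were 14 and 12 in APH, 16 and 16 in CDC6, and 30 and 23 in WT. CDC6 II held 16, of which 4 were at Dyrk1a, and WT II held 23, of which 9 were at Dyrk1a. By their records these 2 libraries share a line, and their lists are of similar length. WT I, by its record from the other line, has the longest list and held the most. These are single libraries, and the differences between them were not tested. Of the weaker peaks, 9 and 9 in APH, 7 and 9 in CDC6, and 12 and 15 in WT had a fold below the median of their list. The gene-end peak exceeded the highest weaker peak of its window by 3.04 to 4.80 times at Yy1, 2.35 to 5.145 times at Ncoa2, 1.75 to 5.37 times at Dyrk1a and 2.37 to 4.36 times at Celf1. The lowest of these ratios, 1.75 and 1.77, were those of Dyrk1a in CDC6 I and II, where the far-end peak was high.

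**Figure D3:**
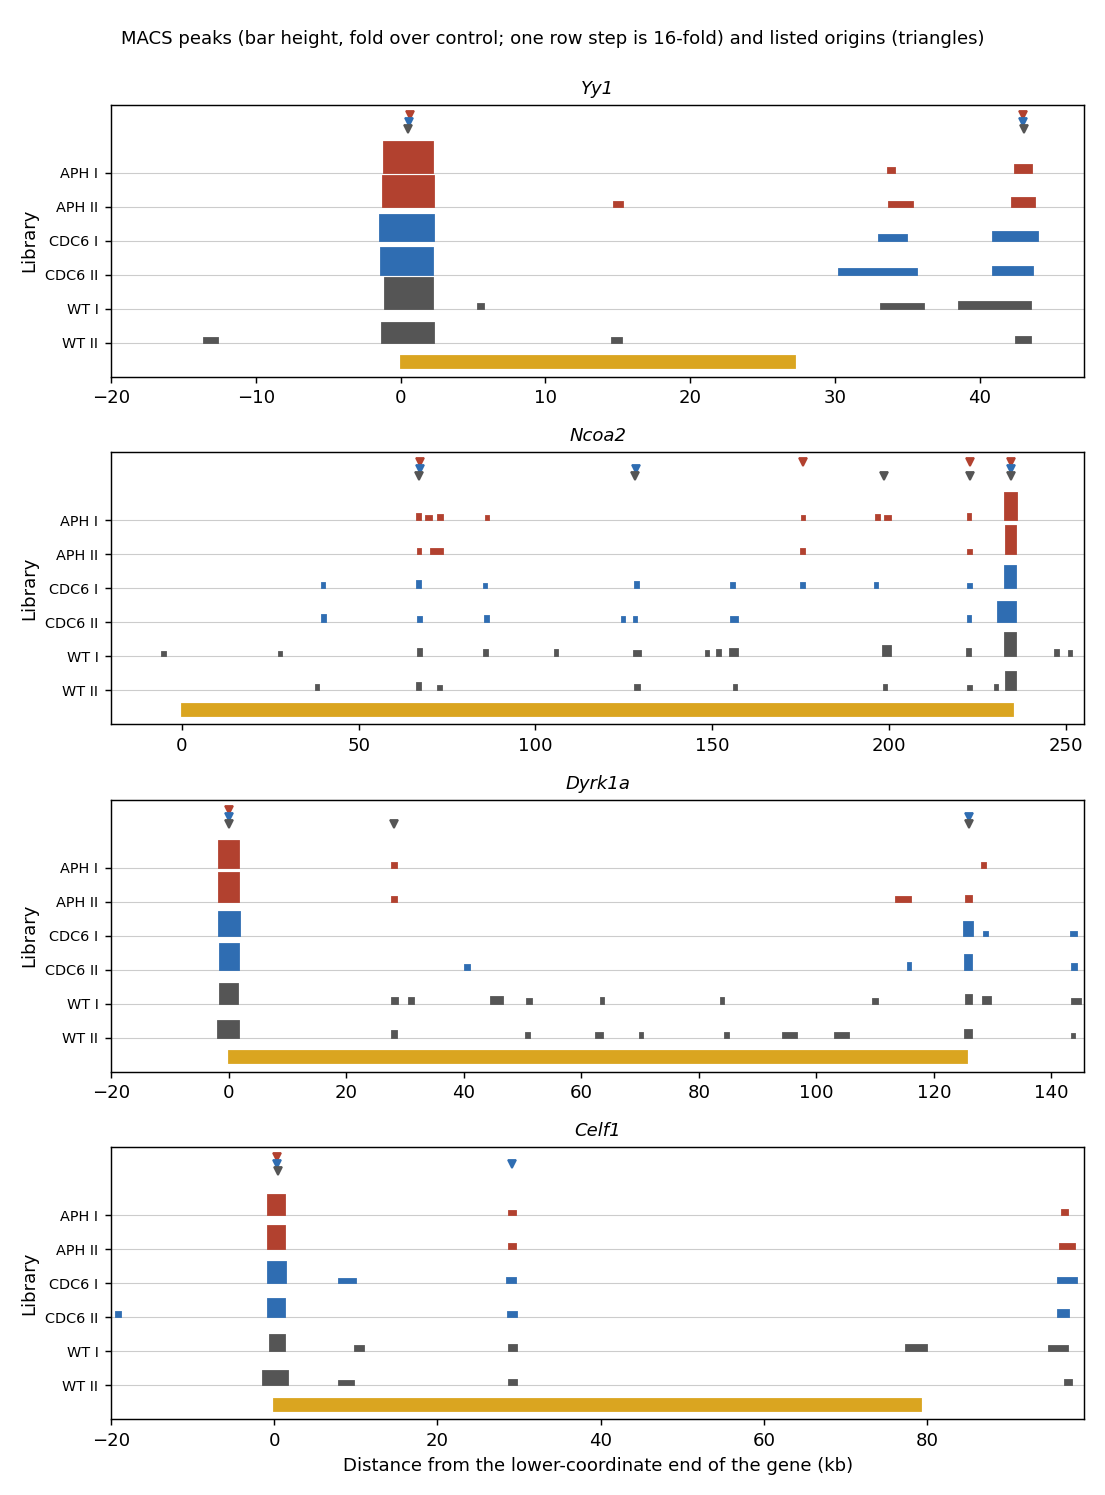
Position of MACS peaks (bars; height proportional to fold, with one row step equal to 16-fold) in each library (rows) against the distance in kb from the lower-coordinate end of the gene, with the gene body in yellow and listed origins as triangles (APH red, CDC6 blue, WT grey). Each gene has 1 tall bar in all 6 rows, and the Dyrk1a body has scattered low bars mainly in WT I and WT II.

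Neighbouring peaks were then counted to ask whether the surroundings of the strong origins differed between conditions. A neighbouring peak had its midpoint in the window and did not overlap 1 kb around either end of the gene, so the peaks that chose the genes were left out. Yy1 had 2 and 3 in APH, 2 and 2 in CDC6, and 3 and 3 in WT. Ncoa2 had 8 and 4 in APH, 8 and 7 in CDC6, and 13 and 8 in WT. Celf1 had 2 and 2 in APH, 3 and 3 in CDC6, and 3 and 3 in WT. No library had more than 3 at Yy1 or Celf1. At Ncoa2 the libraries of APH and those of WT differed among themselves, and WT II had the same number as APH I.

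Dyrk1a had 2 and 2 neighbouring peaks in APH and 2 and 3 in CDC6, against 9 and 8 in WT. All 4 APH and CDC6 libraries lay below both WT libraries. Scaled to the mean list length, the number was 2.18 ± 0.065 in APH, 2.55 ± 0.501 in CDC6 and 7.69 ± 0.208 in WT (SD, n = 2 each). Of the 16 weaker sites in the Dyrk1a window, 10 had peaks in WT libraries alone, and 2 of these were in both, 51.15 kb and 63.15 kb from the start, with folds of 2.19 to 2.61. The weaker peaks, the far-end one included, covered 0.902% and 2.60% of the window in APH, 1.94% and 2.33% in CDC6, and 6.37% and 6.47% in WT. None of the WT-only sites in this window was in a condition list. The only site of the Dyrk1a window in the WT list alone, at 28.3 kb, also had peaks in both APH libraries.

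The test did not call any of these differences. This does not show that they are absent, since the spread it used includes that between the WT lines. With limma on log2(scaled number + 1) over 17764 protein-coding genes with a mean of at least 1 neighbouring peak, 0% of genes passed an adjusted p of 0.05 for APH minus WT, 0% for CDC6 minus WT and 0% for APH minus CDC6, where 1467, 1396 and 1685 genes had an unadjusted p under 0.05. For Dyrk1a the log2 difference was −1.45 with a standard error of 0.268 for APH minus WT (limma adjusted p = 0.543). For CDC6 minus WT it was −1.30 with a standard error of 0.268 (limma adjusted p = 0.622). By unadjusted p, Dyrk1a stood at positions 21 and 31 of the 17764 genes, with 1.28% and 1.15% of genes having a lower difference. Without WT I, by its record the library of the other line, its differences were −1.48 and −1.32. Without WT II they were −1.43 and −1.275. In each of these fits WT keeps 1 library, which is assumed to vary like the APH and CDC6 pairs, so effect sizes alone are given. Peak names inside the WT I list carry the label WT II. Which of these fits leaves libraries of a single line is therefore not settled. Over all alternatives tried, the adjusted p ran from 0.0529 to 0.987 for APH minus WT and from 0.0899 to 0.931 for CDC6 minus WT. Between APH and CDC6 the Dyrk1a difference was −0.15 (limma adjusted p = 0.8845).

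None of the 4 genes was called, and the other 3 had smaller differences from WT. For APH minus WT the log2 difference was −0.01 ± 0.310 at Yy1, −0.51 ± 0.349 at Ncoa2 and −0.23 ± 0.2805 at Celf1, each with its standard error, and the limma adjusted p-values were 0.984, 0.739 and 0.846. For CDC6 minus WT they were −0.28 ± 0.310, −0.23 ± 0.349 and 0.14 ± 0.2805 (limma adjusted p = 0.7605, 0.8645 and 0.904). Single libraries moved these values. When each was left out in turn, Ncoa2 ran from −0.91 (without APH I) to −0.11 (without APH II) for APH minus WT, and from −0.45 (without WT II) to −0.02 (without WT I) for CDC6 minus WT. Celf1 ran from 0.055 (without WT I) to 0.22 (without WT II) for CDC6 minus WT, and Yy1 from −0.25 (without APH II) to 0.22 (without APH I) for APH minus WT. Between APH and CDC6 the differences at Yy1, Ncoa2 and Celf1 were 0.27, −0.28 and −0.37 (limma adjusted p = 0.824, 0.840 and 0.714). The median over all genes tested was 0.02 for APH minus WT and 0.13 for CDC6 minus WT. It moved to 0.10 and 0.21 without WT I, to −0.12 and 0.01 without WT II, and to −0.20 and 0 without scaling. The scaled APH numbers lay below both WT numbers at Dyrk1a and Celf1, against 15.6% of all genes tested, and above both at 0 of the 4 genes, against 21.8%. Scaled CDC6 numbers lay below both WT numbers at Yy1 and Dyrk1a, against 12.1%, and above both at 0 of the 4 genes, against 22.2%. All 4 APH and CDC6 libraries lay below both WT libraries at Dyrk1a alone of the 4 genes, and at 6.43% of all genes tested. The APH and CDC6 comparisons share the WT libraries.

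**Figure D4:**
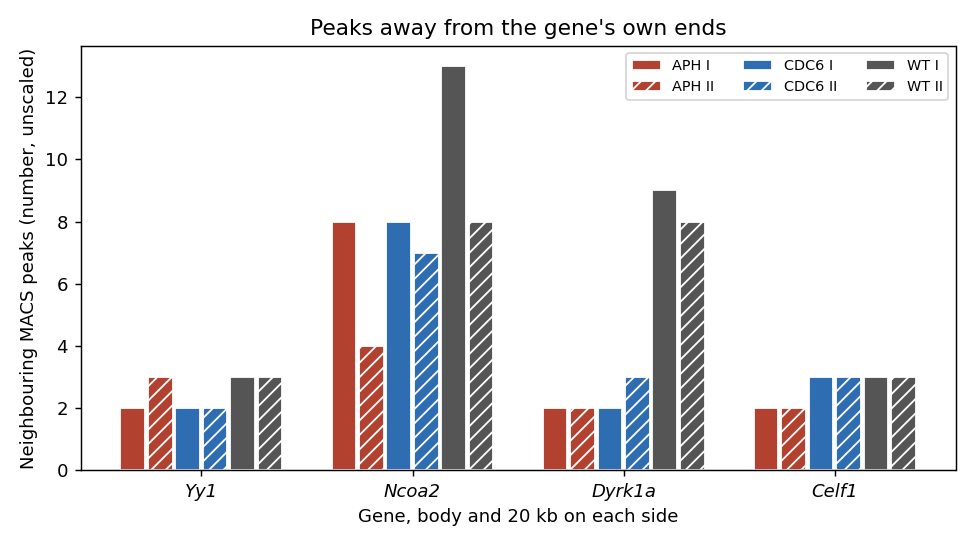
Number of neighbouring MACS peaks before scaling (y axis, from 0) at each gene (x axis) in each library, with APH in red, CDC6 in blue and WT in grey, plain bars for library I and hatched bars for library II. At Dyrk1a the APH and CDC6 bars stand at 2 or 3 and the WT bars at 9 and 8.

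Paralogues of the 4 genes were examined with the same gene-end windows. Of 13 paralogues, 8 had a gene-end peak in all 6 libraries, 1 in some of them and 4 in none, and 5 had an origin in all 3 lists. Over all 21631 protein-coding genes, 8542 had a gene-end peak in all 6 libraries, and 27.3% had a gene-end origin in all 3 lists. With 13 genes no test was made, and nothing is read from these counts. The 2 relatives of Yy1, Yy2 and the stem cell factor Zfp42 (Rex1), had no peak at either end in any library. Ncoa1, another nuclear receptor coactivator, had folds of 5.05 and 5.48 in APH, 6.09 and 6.52 in CDC6, and 9.80 and 3.99 in WT. In WT I it thus exceeded Celf1 and Dyrk1a, while WT II gave its lowest fold.

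Among the kinases related to Dyrk1a, Dyrk1b had folds of 6.14 and 6.76 in APH, 5.89 and 6.58 in CDC6, and 6.16 and 4.405 in WT. Dyrk1b was the highest paralogue by mean percentile, at position 800 of 8542 genes. Dyrk2 and Dyrk4 had no peak in any library, and Dyrk3 had peaks of 2.07 to 4.46 in all 6 libraries and an origin in 0 lists. All 5 relatives of Celf1, which are RNA-binding proteins of the same family, had a gene-end peak in at least 5 libraries. Celf5 was the highest in mean percentile, with folds of 6.14 and 6.16 in APH, 5.25 and 3.56 in CDC6, and 4.80 and 4.645 in WT, and an origin in the APH and WT lists. Celf4 had peaks in 5 libraries, 2.58 to 3.71, and none in WT II.

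**Figure D5:**
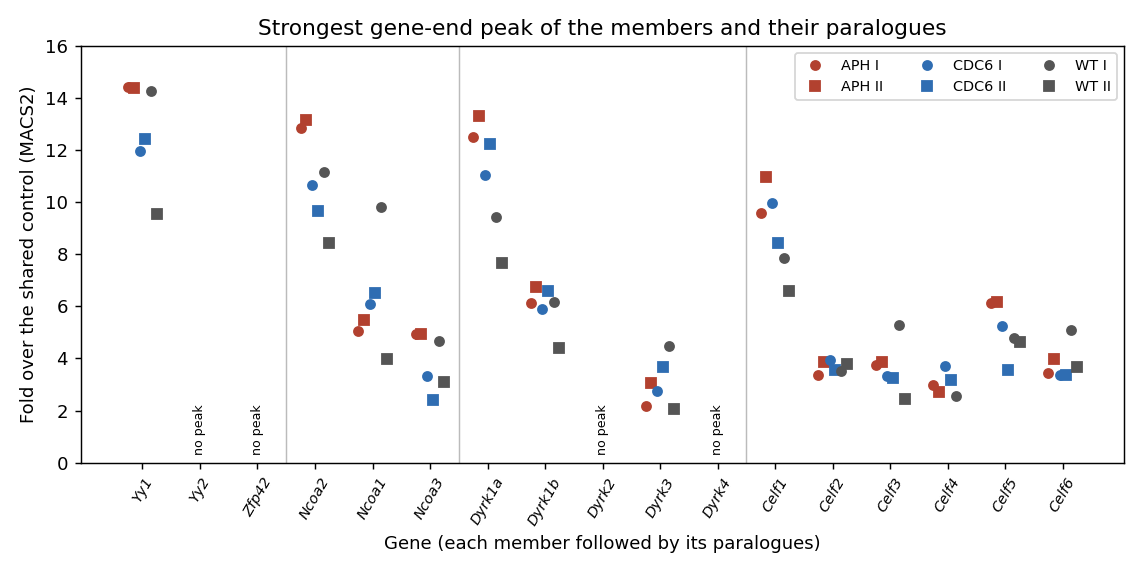
Fold over the shared control (y axis, from 0) of the strongest gene-end peak of each member and its paralogues (x axis, a vertical line before each new family) in each library, with APH in red, CDC6 in blue and WT in grey, circles for library I and squares for library II. Members span 6.58 to 14.4, and Yy2, Zfp42, Dyrk2 and Dyrk4 have no peak.

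The genes most like each member were those with the smallest distance between log2 folds, each relative to its list's median, over the 6 libraries and 8542 genes. Nearest to Yy1 were Ncoa2 at 0.60, Brpf3, a subunit of a histone acetyltransferase complex, at 0.725, and Dyrk1a at 0.73. The nearest to Ncoa2 were Rev1 at 0.33, the small GTPase Arl4a at 0.39 and Zfp654 at 0.40. Closest to Dyrk1a were Ranbp9 at 0.44, the phospholipase Ddhd1 at 0.44 and Ncoa2 at 0.44. The nearest to Celf1 were the orphan nuclear receptor Nr2c2 at 0.22, DNA ligase Lig3 at 0.22 and the endocytosis protein Fcho2 at 0.24. Yy1 had no gene as near to it as the first neighbour of the other 3 members. The distances use the peaks that chose the genes, and Yy1 stood at position 1 by mean percentile, so nothing is read from this. Lig3 had folds of 9.77 and 10.1 in APH, 9.80 and 9.29 in CDC6, and 7.645 and 7.15 in WT, and like Celf1 had its lowest fold in WT II.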

How the data were processed

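Short nascent strands were sequenced in 6 libraries of APH, CDC6 and WT cells. Of the Input sample no list was analysed here. The tools named by the submitters' processing notes are MACS2 2.0.10, Picard 1.107, bedtools 2.23.0, SAMtools 0.1.19, BWA 0.7.10 and FastQC, and the builds are mm9, mm10 and GRCm38, with no roles stated. The deposited MACS lists hold a score, a fold ratio over the control, a −log10 p-value and a −log10 q-value per peak, end at a q-value of 0.1 and have peaks of at least 400 bp. The deposited condition lists and second lists of the libraries hold 2 scores of unstated meaning, and how they were combined is not stated there.

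Labels of the second lists went against the condition lists: all WT rows were found in the second list under the label APH I, all APH rows in that of CDC6 I, and all CDC6 rows in that of CDC6 II. Condition and MACS lists were used as labelled, and second lists only in an alternative. Peak names inside the MACS list of WT I carry the label WT II; it was used under its sample record.

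Positions of genes came from RefSeq (GRCm38.p6). Overlap meant at least 1 bp. The neighbouring peaks were scaled to the mean list length. Their log2(scaled number + 1) was fitted by limma 3.58.1 under R 4.3.3 (functions lmFit and eBayes, trend on, 3 residual degrees of freedom, Benjamini-Hochberg adjustment over all genes with a mean of at least 1). The fit was also run on simulated numbers with large increases in APH only. That run says nothing on its power for decreases like those at Dyrk1a. Other tables were made with Python 3.11.15 and pandas 2.3.3. The members and lists were chosen with earlier results of these data known. Genes named are the members, genes in their windows, a fixed list of paralogues, the 3 genes most like each member and the genes next to each in order of mean percentile. Alternatives changed the window, gene-end distance, q-value limit, list length, scaling, pseudocount, filter, peak list, measure, replicate block and libraries.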

Additional observations from a re-analysis of the deposited data

How the results depend on the processing

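For the 4 gene-end peaks, taking the highest fold or a distance of 2 kb picked the same peaks, so the 48 alternative folds equal those reported and say nothing about stability. With limma, 0 genes were called in each of the 3 comparisons except in 2 settings. With the 70000 highest peaks of each library 23, 18 and 20 genes were called (APH over WT, CDC6 over WT, APH over CDC6). With no filter on low numbers there were 208, 185 and 158. That setting lets in genes with a mean under 1 neighbouring peak, and whether they made up the called genes was not tested. No member was among the called genes in either setting. The Dyrk1a difference was below 0 in 18 of 18 alternatives, from −1.66 to −0.90 for APH minus WT (limma adjusted p at least 0.0529). For CDC6 minus WT it ran from −1.65 to −0.50 (limma adjusted p at least 0.0899). Some of these alternatives could not move it. With no filter, with the replicate block or without a library of the third condition, −1.45 and −1.30 stay by construction. They say nothing about stability. With the second lists Dyrk1a and Celf1 had under 1 neighbouring peak on average and were not tested. All rows of the WT list lay in the second list labelled APH I, and all rows of the APH list in that labelled CDC6 I. Values given with the second lists may therefore not compare the conditions named, and nothing is read from their signs. Signs of small differences turned. For Yy1, APH minus WT was 0.047 with the gene's own ends kept in, 0.16 with 10 kb on each side, 0.073 at a q-value of at most 0.01, 0.50 with the 70000 highest peaks and 0.30 with the second lists, and −0.25 to 0.22 when each library was left out in turn, above 0 without APH I or without WT II. For Yy1, CDC6 minus WT was 0.22 with 50 kb on each side, 0.62 at the stricter q-value, 0.29 with the 70000 highest peaks, 0.62 for covered kilobases and 0.19 with the second lists. For Yy1, APH minus CDC6 was −0.59 with 50 kb, −0.54 at the stricter q-value and −1.31 for covered kilobases. Ncoa2 turned to 0.0865 (APH minus WT) and 0.35 (APH minus CDC6) with the second lists, and its APH minus CDC6 difference ran from −0.68 to 0.13 when each library was left out, above 0 without APH II. Celf1, CDC6 minus WT, was −0.17 with 10 kb. Dyrk1a, APH minus CDC6, was 0.36 with 10 kb and 0.29 with the 70000 highest peaks. The cause of these turns was not tested. Origins in the 4 windows numbered 5 in APH and 7 in WT above the median second score, 14 in CDC6 with 50 kb on each side, and 14, 16 and 17 in APH, CDC6 and WT when sites with a MACS peak in both libraries replaced the lists. Without scaling, the median over all genes moved to −0.20 for APH minus WT, 0 for CDC6 minus WT and −0.21 for APH minus CDC6. Libraries I and II share only a number: deviations correlated at −0.07 between APH I and CDC6 I, −0.15 between APH I and WT I and 0.01 between CDC6 I and WT I. With the replicate block 0 genes were called in each comparison, and the Dyrk1a differences were −1.45 (adjusted p = 0.661) and −1.30 (adjusted p = 0.704). Peaks near the list limit depend on read depth, which is unknown.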
